A study of Mus musculus with 6 samples.

Results

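To find out whether the drugs left different levels of tuft cell transcripts in the inflamed gut, 10 genes that mark tuft cells or their mediators were followed in colorectal tissue of mice with colitis. The genes were chosen by symbol, and all 10 were among the 18268 genes listed. Of these, 7 were tested, among 12072 genes whose FPKM was 1 or more in 3 or more samples. FPKM corrects the fragments of a gene for the length of its transcript and the size of the library, so levels can be compared between genes.

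The 6 samples were whole colorectal tissue of C57BL/6 mice, which the study describes as adult males. All mice, in both groups, had received dextran sulfate sodium (DSS), which damages the colonic epithelium, for 7 days. Berberine (BBR), a plant alkaloid, was given by gavage for 6 days to 3 mice, and the other 3 received sulfasalazine (SASP), a standard drug for ulcerative colitis, in the same way. Healthy mice and colitis mice without a drug were not analysed here, so each difference lies between the drugs.

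Tuft cells are rare chemosensory cells of the gut epithelium. They require the transcription factor Pou2f3, sense luminal compounds through receptors that open the cation channel Trpm5, and release IL-25, which acts on innate lymphoid cells of the lamina propria. These cells answer with IL-13, which favours the formation of tuft and goblet cells. Tuft cells also make cysteinyl leukotrienes and prostaglandin D2, the lipid mediators whose synthesis needs Alox5ap, Ltc4s and Hpgds. In whole tissue, fewer cells of a type and less RNA per cell cannot be told apart.

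Epithelium was present in all samples, with 9 of 9 pan-epithelial genes above the filter and a summed level of 5883 to 6360 FPKM under BBR and 6153 to 7367 FPKM under SASP. Single genes of this list differed between the groups. Vil1 was lower under BBR (limma adjusted p = 0.0327), the 1 of 9 with an adjusted p under 0.05, beside 8.86% of all tested genes. The groups did not overlap in 4 of the 9, with 1 higher and 3 lower under BBR. Depth was estimated at 17400000 to 17700000 reads in BBR and 18200000 to 19300000 reads in SASP mice, a rough figure that rests on 31 to 56 genes per sample. BBR mouse 3 stood apart from the other BBR mice, with 6646 FPKM summed over 8 smooth muscle genes against 2797 and 2891 FPKM. The SASP mice ranged from 711 to 2232 FPKM in these genes. Smooth muscle genes also differed between the groups, with 8 of 8 higher under BBR, 7 of 8 without overlap and a median log2 fold change of 1.38. However, 0 passed the threshold (limma, adjusted p under 0.05), and 7 had an unadjusted p under 0.05. Over all tested genes 60.8% were higher, 37.9% did not overlap and 31.8% had an unadjusted p under 0.05 (limma). The part of muscle in the values of other genes was not tested. A fit with these genes as a covariate is given below, but it cannot separate muscle from drug.

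Promoter sequences were available for 7 of the 10 genes, from RefSeq on GRCm38.p6, and are printed 5′ to 3′ for the members whose levels across mice are compared below (Trpm5, Sh2d6 and Hpgds, and Dclk1 and Avil). Each line holds the 250 bases before an annotated start. They were searched on both strands for the octamer ATGCAAAT, which POU family factors are known to bind, and for its first 7 letters, ATGCAAA, which every octamer also contains. Matches are in capitals.
Hpgds, chr6:65144731-65144980, minus strand: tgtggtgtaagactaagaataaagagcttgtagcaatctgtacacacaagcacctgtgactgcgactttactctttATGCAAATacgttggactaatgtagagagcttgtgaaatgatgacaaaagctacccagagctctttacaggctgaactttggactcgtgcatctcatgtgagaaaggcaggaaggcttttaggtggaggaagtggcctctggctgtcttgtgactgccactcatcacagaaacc
Trpm5, chr7:143094643-143094892, minus strand: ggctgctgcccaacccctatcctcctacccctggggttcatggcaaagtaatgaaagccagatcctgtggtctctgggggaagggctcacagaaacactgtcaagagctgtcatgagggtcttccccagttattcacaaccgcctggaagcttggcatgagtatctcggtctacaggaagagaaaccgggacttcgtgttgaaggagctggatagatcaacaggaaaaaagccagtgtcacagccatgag
Sh2d6, chr6:72520037-72520286, minus strand: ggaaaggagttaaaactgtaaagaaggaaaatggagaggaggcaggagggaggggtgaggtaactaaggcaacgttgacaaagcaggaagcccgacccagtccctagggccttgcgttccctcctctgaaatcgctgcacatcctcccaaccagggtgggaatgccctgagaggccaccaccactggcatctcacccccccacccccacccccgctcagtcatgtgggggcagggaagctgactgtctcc
Avil, chr10:127000459-127000708, plus strand: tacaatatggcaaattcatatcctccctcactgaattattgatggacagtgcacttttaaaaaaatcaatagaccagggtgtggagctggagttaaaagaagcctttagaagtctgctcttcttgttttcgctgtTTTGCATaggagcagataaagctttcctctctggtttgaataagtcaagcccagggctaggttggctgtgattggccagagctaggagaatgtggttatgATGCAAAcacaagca
Dclk1 upstream start, chr3:55242114-55242363, plus strand: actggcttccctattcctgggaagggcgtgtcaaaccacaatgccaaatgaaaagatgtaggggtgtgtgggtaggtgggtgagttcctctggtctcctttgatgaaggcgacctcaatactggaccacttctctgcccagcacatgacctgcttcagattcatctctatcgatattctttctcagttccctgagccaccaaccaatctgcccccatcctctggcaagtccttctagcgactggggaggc
Dclk1 downstream start, chr3:55461478-55461727, plus strand: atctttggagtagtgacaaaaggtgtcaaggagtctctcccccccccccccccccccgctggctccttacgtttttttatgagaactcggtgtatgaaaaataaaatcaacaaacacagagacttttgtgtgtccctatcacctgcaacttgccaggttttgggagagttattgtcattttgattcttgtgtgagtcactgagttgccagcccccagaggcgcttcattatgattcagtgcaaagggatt

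The Hpgds window held the whole octamer, at bases 77 to 84, and that of Avil held the shorter form at bases 236 to 242 and, on the opposite strand, at bases 136 to 142. The windows of Trpm5, Sh2d6 and both starts of Dclk1 held no match, nor did those of Gfi1b and Ltc4s, which are not printed. Of 8 windows searched, 1 held the octamer and 2 held the shorter form. Among 32851 promoters of the same table, searched over these bases and the 50 that follow the start, 1.74% held the octamer and 4.63% the shorter form. Dclk1 has more than 1 annotated start, and the values below are summed over its transcripts.

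Tuft cell transcripts were present at low levels under both drugs. None of the 7 tested genes passed the threshold, an adjusted p-value under 0.05 in limma, and 0 of 7 had an unadjusted p under 0.05. Over all tested genes 8.86% passed the threshold, 3.82% higher and 5.04% lower under BBR, and 31.8% had an unadjusted p under 0.05, 18.4% of all being higher. The BBR and SASP mice overlapped in 7 of 7 tested genes, and also in those below the filter. Over all tested genes the groups did not overlap in 37.9%, with all BBR mice above all SASP mice in 21.3% and below them in 16.6%. The median log2 fold change of the 7 genes was 0.24, with 6 higher and 1 lower under BBR (5 and 2 with quantile normalization or array weights, and 4 and 3 with the smooth muscle covariate), beside a median of 0.10 over all tested genes, of which 60.8% were higher. Fold changes are BBR minus SASP on the log2(FPKM + 1) scale, which understates changes of genes at these levels.

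Hpgds was the most abundant of the genes and the cytokine Il25 the least. The mean over the 6 mice was 5.58 FPKM for Hpgds, 4.035 FPKM for Alox5ap and 2.70 FPKM for Dclk1, then 2.28, 2.24, 1.85 and 1.57 FPKM for Sh2d6, Avil, Ltc4s and Trpm5. Pou2f3, Gfi1b and Il25 followed with 0.285, 0.13 and 0.025 FPKM. Of the 9 neighbouring pairs in this order, only Trpm5 and Pou2f3 had ranges that did not overlap, with the lowest Trpm5 value at 0.98 FPKM and the highest Pou2f3 value at 0.45 FPKM. Alox5ap nevertheless lay above Dclk1 within 6 of 6 mice, and Hpgds above Alox5ap within 5 of 6.

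**Figure D1:**
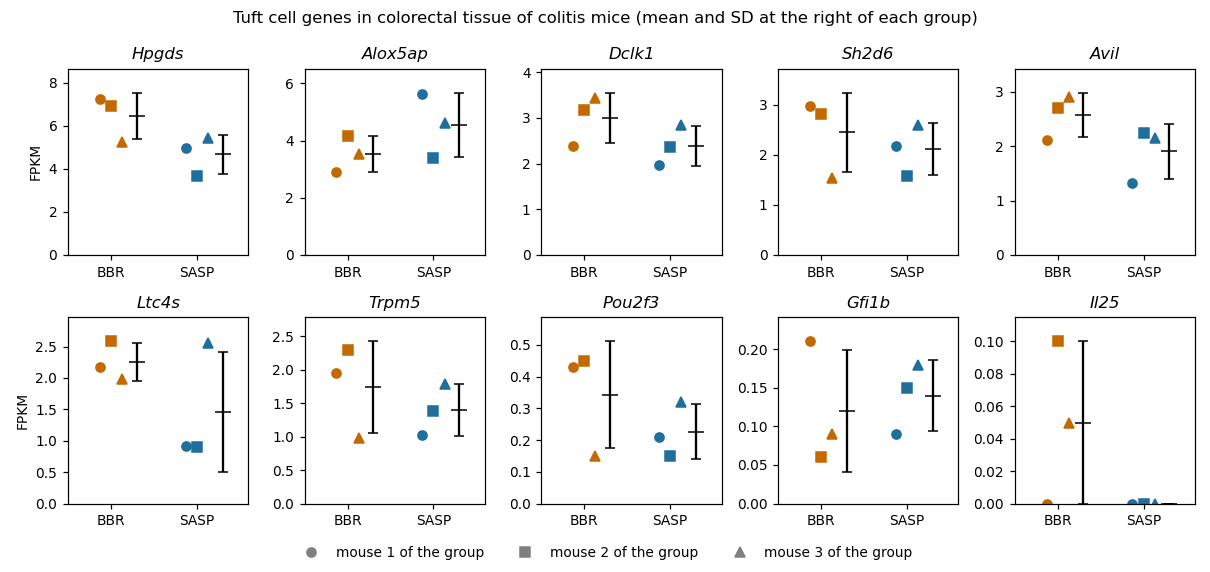
FPKM of the 10 tuft cell genes in each of the 3 BBR and 3 SASP mice, 1 panel per gene with its own axis from 0; the bar at the right of each group is the mean with its SD. The groups overlap in every panel, and the triangle of BBR mouse 3 lies below the other BBR mice in Hpgds, Sh2d6, Ltc4s, Trpm5 and Pou2f3 and above them in Dclk1 and Avil.

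Among the regulators of tuft cell identity, both transcription factors lay below the filter. Pou2f3 (Gene ID 18988), without which tuft cells do not form, was listed at 0.43, 0.45 and 0.15 FPKM in BBR mice 1, 2 and 3 and at 0.21, 0.15 and 0.32 FPKM in SASP mice 1, 2 and 3. BBR mice 1 and 2 were the highest of all mice, but BBR mouse 3 shared the lowest value with SASP mouse 2. At the estimated depth these values rest on about 6.72 to 20.5 reads per mouse. Gfi1b (14582), a zinc finger repressor of tuft and blood cell lineages, ranged from 0.06 to 0.21 FPKM under BBR and from 0.09 to 0.18 FPKM under SASP, or about 1.89 to 6.48 reads. Genes of red cells and megakaryocytes, which also express Gfi1b, summed to 21.7 to 25.8 FPKM under BBR and 8.62 to 42.3 FPKM under SASP, and their part in its level was not tested. Neither gene was tested between the groups.

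Trpm5 (56843), the channel that depolarises tuft cells after receptor activation, was at 1.96, 2.29 and 0.98 FPKM in BBR mice 1, 2 and 3 and at 1.02, 1.39 and 1.79 FPKM in SASP mice 1, 2 and 3. The lowest value of all mice thus belonged to the BBR group, as did the highest. The means were 1.74 ± 0.681 and 1.40 ± 0.385 FPKM (SD, n = 3 each). On the log2 scale the change was 0.17 with a 95% interval from -0.37 to 0.72 (limma adjusted p = 0.627). Sh2d6 (71130), an SH2 domain adaptor with tuft cell expression, followed a like order of mice, at 2.98, 2.82 and 1.54 FPKM under BBR and 2.17, 1.58 and 2.60 FPKM under SASP. Its log2 fold change was 0.13 with an interval from -0.39 to 0.66 (limma adjusted p = 0.708).

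Dclk1 (13175), a microtubule-associated kinase and the most widely used tuft cell marker, had another order of mice. It was at 2.39, 3.18 and 3.44 FPKM under BBR and at 1.97, 2.36 and 2.85 FPKM in SASP mice 1, 2 and 3. BBR mouse 3, the lowest BBR mouse for Trpm5 and Sh2d6, was the highest of all 6 here. Over all tested genes this mouse was the lowest BBR mouse in 61.8% and the highest in 22.8%, and in the 7 tested members it was so in 4 and 2. The log2 fold change was 0.24 with an interval from -0.16 to 0.63 (limma adjusted p = 0.354). Avil (11567), an actin-binding protein of the villin family, was at 2.12, 2.71 and 2.90 FPKM under BBR and at 1.32, 2.24 and 2.16 FPKM under SASP. It too was highest in BBR mouse 3 and lowest in SASP mouse 1, and its change was 0.31 with an interval from -0.12 to 0.74 (limma adjusted p = 0.275).

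Il25 (140806), the cytokine that tuft cells release towards innate lymphoid cells, was listed at 0.10 and 0.05 FPKM in BBR mice 2 and 3 and at 0 in BBR mouse 1 and in all SASP mice. At the estimated depth the values above 0 correspond to about 1.80 and 0.888 reads, so presence in 2 of 3 BBR mice and 0 of 3 SASP mice was within what single reads can give.

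Of the enzymes of lipid mediators, Hpgds and Ltc4s had higher and Alox5ap lower means under BBR, with no change past the threshold. Hpgds (54486), the synthase of prostaglandin D2, was at 7.25, 6.91 and 5.25 FPKM under BBR and at 4.96, 3.67 and 5.42 FPKM in SASP mice 1, 2 and 3. BBR mouse 3 lay within the range of the SASP mice, whereas BBR mice 1 and 2 lay above all of them. The means were 6.47 ± 1.07 and 4.68 ± 0.907 FPKM (SD, n = 3 each), a ratio of 1.38. The log2 fold change of 0.40 had the smallest p of the members (interval -0.022 to 0.82, limma adjusted p = 0.173). Without BBR mouse 3 the Hpgds log2 fold change was 0.52 and passed the threshold (limma adjusted p = 0.0478), in a fit in which 33.8% of all genes passed.

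Ltc4s (17001), which joins leukotriene A4 to glutathione, had the largest log2 fold change of the 7 genes, 0.46 with an interval from -0.16 to 1.09 (limma adjusted p = 0.261). It was at 2.17, 2.58 and 1.99 FPKM in BBR mice. In SASP mice it was at 0.91, 0.90 and 2.56 FPKM, so SASP mouse 3 lay among the BBR mice and the SD within the SASP group, 0.956 FPKM around a mean of 1.46 FPKM, exceeded the difference from the BBR mean of 2.25 FPKM. With pseudocounts of 0.1 and 0.01 the change was 0.75 and 0.80, still short of the threshold. Its short transcript gave only about 11.5 to 31.1 reads per mouse. Alox5ap (11690), the membrane protein that presents arachidonic acid to 5-lipoxygenase, was the tested member lower under BBR, at 2.89, 4.15 and 3.54 FPKM against 5.62, 3.38 and 4.63 FPKM under SASP. Its log2 fold change was -0.28 with an interval from -0.74 to 0.18 (limma adjusted p = 0.344).

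The intervals bound what these samples could show. On the log2(FPKM + 1) scale, the upper limit stayed below 1 in 6 of the 7 genes and reached 1.09 in Ltc4s, and the lowest limit was -0.74, in Alox5ap. Because this scale understates changes of genes at these levels, larger ratios of FPKM than these limits were not excluded. With 3 mice in each group, permuting the labels exactly gives no two-sided p under 0.10, so single genes were not tested in that way.

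**Figure D2:**
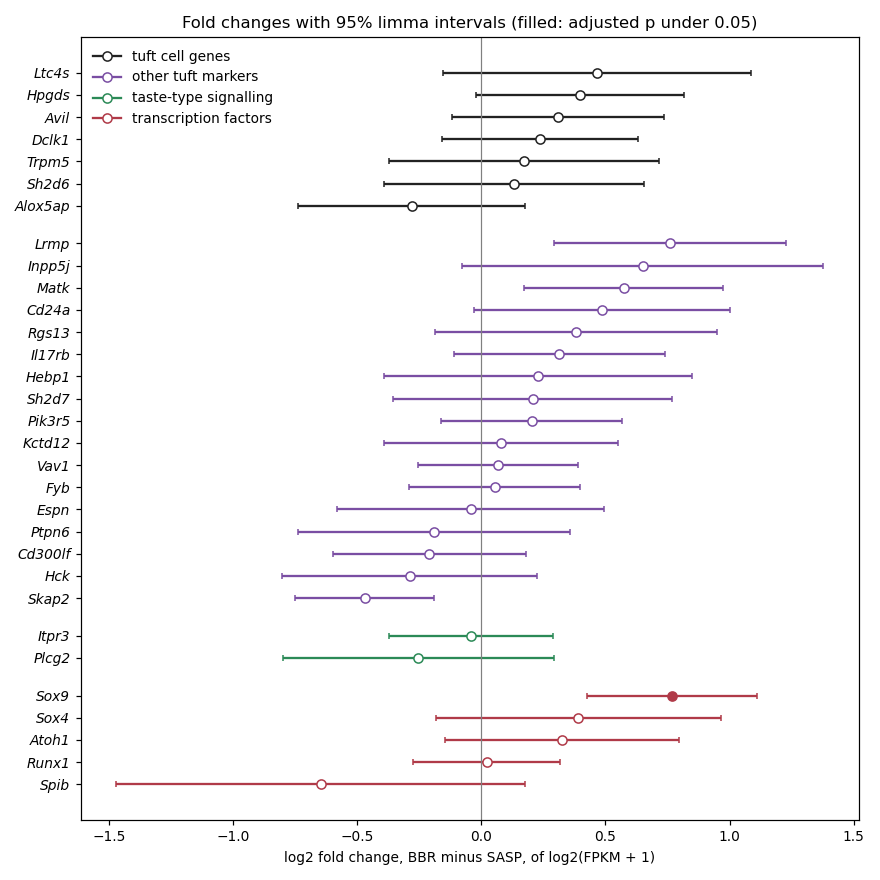
Log2 fold change (BBR minus SASP) on the horizontal axis for the 7 tested tuft cell genes and 24 other tested genes of tuft cells, with 95% intervals from limma; filled points passed an adjusted p of 0.05. All 7 intervals of the first block cross 0, and Sox9, at 0.77, is the filled point.

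The order of mice was compared between members. Pou2f3 and Sh2d6 had a Pearson r of 0.957 and a Spearman rho of 0.928 over the 6 mice (exact permutation p = 0.0167 and 0.0222), and r was 0.965 without the 2 mice farthest from the median of Pou2f3. Hpgds had an r of 0.877 with Pou2f3 and 0.823 with Sh2d6 (exact permutation p = 0.0222 and 0.0444). Its r was 0.63 with Trpm5, 0.29 with Dclk1 and 0.21 with Avil (exact permutation p = 0.181, 0.581 and 0.7). Trpm5 and Sh2d6 had an r of 0.80 and a rho of 0.886 (exact permutation p = 0.0722 and 0.0333). Trpm5 and Pou2f3 had an r of 0.899 and a rho of 0.899 (exact permutation p = 0.0306 and 0.0278; r = 0.962 without the 2 mice farthest in Trpm5 and 0.711 without those farthest in Pou2f3). Dclk1 and Avil had an r of 0.911 and a rho of 0.829 (exact permutation p = 0.00833 and 0.0583; r = 0.763 without the 2 mice farthest in Dclk1). Dclk1 and Sh2d6 had an r of -0.078 and a rho of -0.086 (exact permutation p = 0.875 and 0.919), and r was 0.474 without the 2 mice farthest in Dclk1 and 0.620 without those farthest in Sh2d6. For Avil and Sh2d6, r rose from -0.15 to 0.839 without the 2 mice farthest in Sh2d6 but was 0.157 without those farthest in Avil. For Dclk1 and Trpm5 it rose from 0.205 to 0.717 without those farthest in either. These values leave out 2 of only 6 mice and differ with the mice chosen. Differences between correlations were not tested. The genes were read in the same 6 libraries, and 28 pairs of 8 members were compared, of which 0 passed after Benjamini-Hochberg adjustment. The smallest adjusted p over the 28 pairs was 0.207 for r and 0.204 for rho.

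Dclk1 and Avil are also expressed by neurons, and the order of mice was compared with 12 enteric neuron and glia genes. Their summed level was 27.7, 70.0 and 98.8 FPKM in BBR mice 1, 2 and 3 and 17.7, 44.6 and 39.7 FPKM under SASP, so BBR mouse 3 was highest and SASP mouse 1 lowest, as for Dclk1 and Avil. The sums of the goblet cell, colonocyte and smooth muscle genes had the same highest and lowest mouse, so this order was not particular to neuron genes. In all 10 tested genes of the neuron and glia list BBR mouse 3 was the highest BBR mouse, beside the 22.8% of all tested genes given above. It was so too in 8 of 8 goblet cell genes and 8 of 8 smooth muscle genes. The median change of the 10 genes was 0.62 on the log2 scale, with 10 of 10 higher under BBR and 0 past the threshold (limma; 1 with an unadjusted p under 0.05). The defining neuronal markers Elavl4 and Uchl1 were above 0 in all mice. With the mean level of smooth muscle genes as a covariate, the Dclk1 log2 fold change was -0.024 and the Avil log2 fold change was -0.067, both on the other side of 0. On the log2 scale this covariate was 7.73 to 8.97 under BBR and 5.86 to 7.45 under SASP. The groups do not overlap in it, so drug and muscle cannot be told apart in that fit. The median of the 10 neuron and glia genes was -0.37 in that fit, with 1 higher and 9 lower, and -0.24 with array weights. It was 0.34 without BBR mouse 3, 0.41 without SASP mouse 1 and 0.98 without BBR mouse 1. Whether neurons or muscle in the samples contributed to the levels of Dclk1 and Avil was not tested.

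**Figure D3:**
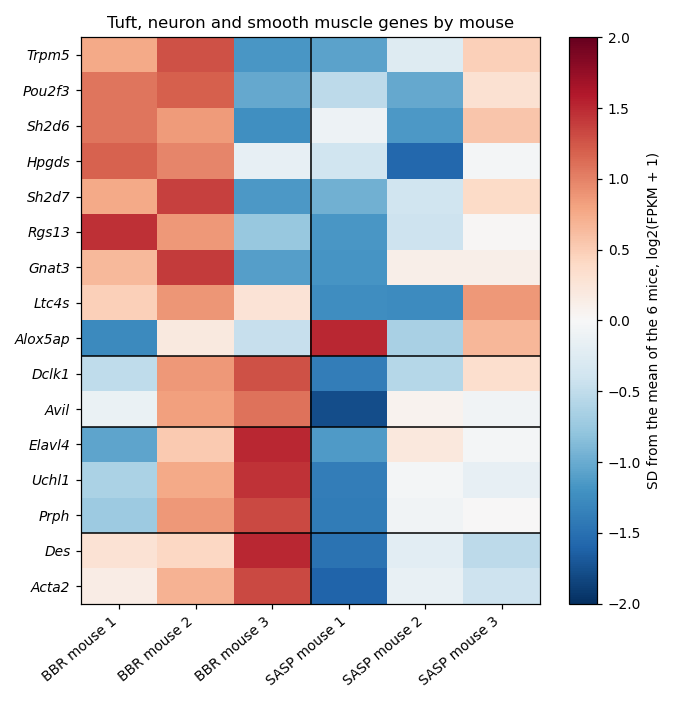
Each cell shows how far a gene lies from its mean over the 6 mice, in SD of log2(FPKM + 1), for tuft cell genes (upper 2 blocks), neuron genes (the third block) and smooth muscle genes (lowest block). Dclk1 and Avil are highest in BBR mouse 3 and lowest in SASP mouse 1, as are the neuron and smooth muscle genes shown, while Trpm5, Pou2f3, Sh2d6 and Hpgds are highest in BBR mice 1 and 2; the genes outside the members were chosen for display after their values were seen.

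Further genes of tuft cells were examined from lists of other markers, of taste-type signalling and of transcription factors. Of 43 genes, 24 were tested, 16 were higher and 8 lower under BBR, and 1 passed the threshold (limma), beside 8.86% of all tested genes. The median log2 fold change was 0.14. The gene that passed was Sox9 (20682), a transcription factor of crypt progenitors and tuft cells. It was higher under BBR, at 9.58, 10.3 and 8.15 FPKM against 4.50, 4.86 and 5.91 FPKM under SASP. The groups did not overlap, and the change was 0.77 with an interval from 0.42 to 1.11 (limma adjusted p = 0.0279). The Sox9 log2 fold change no longer passed when BBR mouse 1 or 2 or any SASP mouse was left out, with adjusted p-values of 0.0809 to 0.126, nor with no filter (0.0517), scaling to pan-epithelial genes (0.0631) or the smooth muscle covariate (0.189). With no filter, scaling to pan-epithelial genes and the smooth muscle covariate, 3.33%, 4.46% and 0.149% of all genes passed. Without BBR mouse 3, 8 of the 24 genes passed, in the fit in which 33.8% of all genes did. Without each of the other mice 0 passed, in fits in which 0.428% to 3.4% of all genes did.

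Of the 17 other markers tested, 12 were higher, 5 lower and 0 past the threshold (limma), with a median of 0.20 and 3 unadjusted p-values under 0.05. The median was 0.050 without BBR mouse 2, 0.12 without SASP mouse 1 and 0.073 with quantile normalization, and median-ratio scaling left 9 higher and 8 lower. Lrmp, an endoplasmic reticulum protein of tuft and lymphoid cells, was at 28.1, 27.6 and 17.2 FPKM under BBR and 12.2, 14.5 and 14.3 FPKM under SASP, without overlap, and had an adjusted p of 0.0590 in limma (log2 fold change 0.76). Skap2, an adaptor that leukocytes also express, lay without overlap in the other direction, at 41.5 to 52.1 FPKM under BBR and 60.9 to 70.4 FPKM under SASP (-0.47, limma adjusted p = 0.0539). Matk, a kinase that inhibits Src family members, was at 1.68 to 2.57 FPKM under BBR and 0.90 to 1.37 FPKM under SASP (0.57, limma adjusted p = 0.0746). Sh2d7 and Rgs13, whose expression in the gut is largely that of tuft cells, had values of 0.21 and 0.38 on the log2 scale with overlapping groups (limma adjusted p = 0.572 and 0.305).

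Trpm5 acts at the end of a cascade of receptors, G proteins and phospholipase C of the taste type. Of 11 genes of this pathway 2 were tested, Plcg2 and Itpr3, and 0 passed (limma; 0 with an unadjusted p under 0.05), with changes of -0.26 and -0.043 (limma adjusted p = 0.469 and 0.851). Gnat3, the taste G protein gustducin, was listed at 1.08, 1.39 and 0.51 FPKM under BBR and at 0.49, 0.89 and 0.89 FPKM under SASP. The succinate receptor Sucnr1, through which tuft cells of the small intestine sense microbial succinate, did not exceed 0.10 FPKM in any mouse. Of the transcription factor list, Atoh1, the determinant of secretory cells, was at 18.0 to 28.7 FPKM under BBR and 16.1 to 22.7 FPKM under SASP (0.32, limma adjusted p = 0.296). Sox4 and Spib, which take part in tuft cell formation and are expressed elsewhere too, had log2 fold changes of 0.39 and -0.65 (limma adjusted p = 0.300 and 0.239).

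Partners of the lipid enzymes gave 0 of 9 tested genes past the threshold (limma), 5 higher and 4 lower, with a median of 0.046 and 2 unadjusted p-values under 0.05. The sign of this median was not stable, at -0.058 without BBR mouse 2, 0.021 without BBR mouse 1, 0.15 without BBR mouse 3, 0.072 without SASP mouse 3, 0.22 without SASP mouse 2, -0.086 with median-ratio scaling and -0.046 with the smooth muscle covariate. Ptgs1, the cyclooxygenase that supplies Hpgds in tuft cells, was at 8.25, 8.75 and 12.3 FPKM under BBR and 5.62, 6.71 and 6.25 FPKM under SASP, without overlap (log2 fold change 0.57, limma adjusted p = 0.0746). Ltb4r1, the leukotriene B4 receptor of leukocytes, lay at 0.43 to 0.85 FPKM under BBR and 1.04 to 2.17 FPKM under SASP (-0.73, limma adjusted p = 0.0684). It passed the filter only through the SASP mice, where it is high. Alox5, which acts with Alox5ap, was low in both groups, at 0.78 to 1.53 and 0.78 to 1.06 FPKM (0.17, limma adjusted p = 0.526).

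The circuit around IL-25 gave 0 of 8 tested genes past the threshold (limma), with 5 higher and 3 lower and a median of 0.22. Of the 4 with an unadjusted p under 0.05 (limma), 3 were lower and 1 was higher under BBR. Over all tested genes 31.8% had such a p. The median was 0.084 without BBR mouse 2, 0.057 with no filter or array weights, 0.092 with median-ratio scaling, 0.12 with quantile normalization and 0.025 with the smooth muscle covariate. Il4ra, the receptor chain shared by IL-4 and IL-13, was at 4.96, 5.87 and 11.9 FPKM under BBR and 16.5, 15.1 and 16.5 FPKM under SASP, without overlap (-1.07, limma adjusted p = 0.0590). Retnlb, a goblet cell product that IL-13 induces, was at 4.92, 0.73 and 42.7 FPKM under BBR and 73.6, 103 and 50.4 FPKM under SASP (-3.27, limma adjusted p = 0.0897). In both genes BBR mouse 3 lay between the other BBR mice and the SASP mice. Il33, an epithelial and stromal alarmin, was at 1.10 to 1.67 FPKM under BBR and 0.55 to 0.87 FPKM under SASP (0.48, limma adjusted p = 0.0955), and it passed the filter only through the BBR mice. The cytokines Il4 and Il5 were at or below 0.15 FPKM in all mice, and Il9 and Il13 were not among the genes listed. Without BBR mouse 3, 4 of 7 tested genes of this circuit and 2 of 9 partners of the lipid enzymes passed the threshold, beside 33.8% of all genes.

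Hpgds, Alox5ap and Ltc4s are also expressed by leukocytes, chiefly mast cells, macrophages and granulocytes. The 10 mast cell genes summed to 11.1 to 15.7 FPKM under BBR and 9.20 to 11.9 FPKM under SASP, with Kit, which pacemaker cells of the gut also express, as the largest contributor. Without Kit the other 9 summed to 3.48 to 3.97 FPKM under BBR and 4.32 to 6.82 FPKM under SASP, without overlap in the other direction. Kit was left out after the values were seen, and each of the other 9 genes overlapped between the groups. Over all tested genes the groups did not overlap in 37.9%. Of the 4 tested, 1 was higher and 3 were lower, with a median of -0.27 and 0 past the threshold (limma; 1, Kit, with an unadjusted p under 0.05). Cpa3 was at or below 0.25 FPKM. The 10 macrophage genes summed to 59.2 to 95.6 and 77.0 to 91.6 FPKM, and the 7 listed eosinophil genes to 0.34 to 1.74 and 0.73 to 1.43 FPKM, with Epx at or below 0.02 FPKM. Of the macrophage genes 0 of 9 passed the threshold (limma; 1 with an unadjusted p under 0.05), and the median change was 0.064. Of the neutrophil genes 2 of 6 passed (limma), S100a8 and Ltf, both lower under BBR, beside 8.86% of all tested genes. Of the 6 neutrophil genes 5 were lower and 1 was higher under BBR, and BBR mouse 3 was the highest BBR mouse in 6 of 6. The 9 listed neutrophil genes summed to 192 to 573 FPKM under BBR and 540 to 569 FPKM under SASP, with Ly6g as the largest contributor. Mpo, Retnlg and Camp were at or below 0.47 FPKM in all mice. The part of these cells in the levels of the 3 enzymes was not tested.

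Other epithelial cells of the secretory lineage gave 0 of 8 goblet cell genes and 1 of 8 enteroendocrine genes past the threshold (limma), with medians of 0.17 and 0.28. Over all tested genes 8.86% passed. BBR mouse 3 was the highest BBR mouse in 8 of 8 goblet cell genes. The goblet cell genes held 0 and the enteroendocrine genes 3 unadjusted p-values under 0.05. The gene that passed was Chgb, a granule protein of enteroendocrine cells (0.58, limma adjusted p = 0.0446). Of the colonocyte genes 1 of 8 passed and of the fibroblast genes 3 of 8 did, with medians of 0.25 and 0.82.

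Zbtb42, Rhbdd1, Agpat3 and Krit1 were among the 5 non-members with the highest Pearson r over the 6 mice to the mean standardized level of Dclk1, Trpm5, Avil and Sh2d6, at 0.976 to 0.986 among 12065 genes. With so many genes over 6 mice, values this high describe the ranking only. The mean joins genes with different orders of mice, such as Dclk1 and Sh2d6 (r = -0.078), so likeness to it is not likeness to each gene. Of the other listed genes of tuft cells, the nearest was Atoh1, the determinant of secretory cells, at rank 79.

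**Figure D4:**
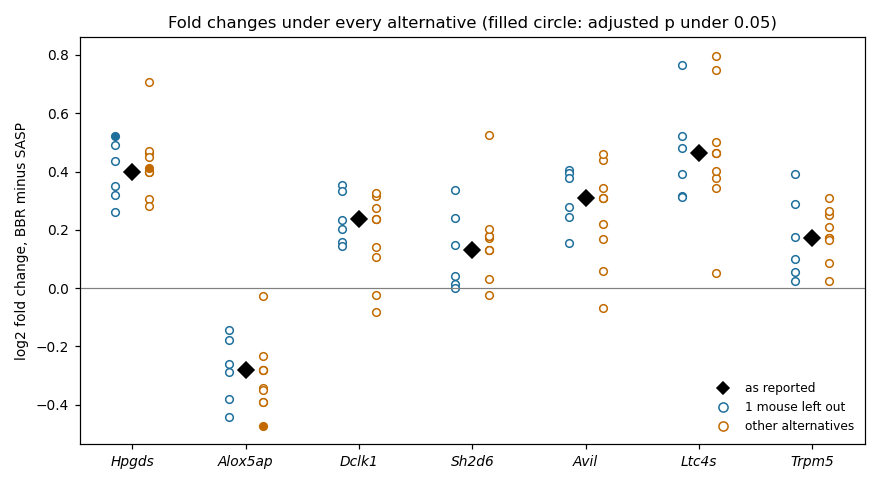
Log2 fold change (BBR minus SASP) of the 7 tested tuft cell genes as reported (diamond), with 1 mouse left out (left circles) and under the other alternatives (right circles); filled circles passed an adjusted p of 0.05. Hpgds and Ltc4s stay above 0 and Alox5ap below it throughout, while Dclk1, Avil and Sh2d6 cross 0 in some fits.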

How the data were processed

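RNA sequencing had been performed on 6 colorectal samples, 3 per group, with groups as given by the labels for treatment. Mice were numbered within a group by accession order, as names only. The authors deposited FPKM values per gene and sample, rounded to 2 decimals. Their methods describe depletion of ribosomal RNA, filtering with SOAPnuke, alignment with Bowtie2 2.2.5 and calculation of expression with RSEM 1.2.12, while the labels name an Illumina kit. The submitters' processing notes list the build mm9, and the annotation is not given in the sources used here. Gene coordinates of another build were therefore not printed, except with the promoter sequences, which are on GRCm38.p6. The study speaks of rectal and of colon samples, the labels of colorectal tissue.

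Because FPKM are not counts, count models were avoided. Values were transformed as log2(FPKM + 1). Genes whose FPKM was 1 or more in 3 or more samples were fitted by limma 3.58.1 under R 4.3.3, with empirical Bayes moderation that allowed a mean-variance trend, two-sided p-values and Benjamini-Hochberg adjustment over all 12072 genes at a threshold of 0.05. The step was also run on simulated data. The outcome of that run is not given here, and nothing stated about the members rests on it. Nothing in the labels says that samples came from separate litters or cages, so p-values measure the spread between these mice. Genes to be named were the 10 members and, of each other list, up to 3 tested genes with the smallest p and up to 6 past the threshold. Other names (Sh2d7, Rgs13, Gnat3, Sucnr1, Alox5, Il4, Il5 and further markers) were chosen after their values were seen, and not every gene the rule allows was described; some items are not reported here. The members and lists were chosen with earlier results of these data known.

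Depth was estimated from genes above 0 in a single sample, taking the median such value as 1 read, in genes whose longest GENCODE M21 transcript was below 1500 bases. Lengths of the same kind gave the approximate reads of the members. Intervals and read numbers are approximate and cover no isoform use. Alternatives were other pseudocounts, filters and scalings, array weights, no variance trend, a smooth muscle covariate and leaving out each mouse.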

Additional observations from a re-analysis of the deposited data

How the results depend on the processing

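No tuft cell gene passed the threshold in 14 of the 16 alternatives. With array weights 2 passed, Hpgds (0.41, limma adjusted p = 0.0102) and Alox5ap (-0.47, limma adjusted p = 0.0104), in a fit that called 59% of all genes. When single mice were left out the count was 0 to 1, and the 1 was Hpgds without BBR mouse 3. Over the alternatives the adjusted p of the Hpgds log2 fold change ranged from 0.0102 to 0.382. In all 16, changes of Hpgds (0.26 to 0.71), Ltc4s (0.054 to 0.80) and Trpm5 (0.025 to 0.39) stayed above 0 and that of Alox5ap (-0.47 to -0.028) below it. Dclk1 lay below 0 with array weights (-0.082) and with the smooth muscle covariate (-0.024), Avil with that covariate (-0.067) and Sh2d6 with quantile normalization (-0.025). The median of the 7 members stayed between 0.057 (array weights) and 0.34 (without BBR mouse 3).

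Of the other tuft cell genes 1 passed as reported, 0 with no filter, with scaling to pan-epithelial genes and with the smooth muscle covariate, 2 with quantile normalization, 3 with median-ratio scaling and 12 with array weights, and 0 to 8 across the fits with a mouse left out. Array weights also gave 6 of the lipid enzyme partners and 5 of the IL-25 circuit genes, and left-out mice gave 0 to 2 and 0 to 4. The cause of these differences was not tested. Median-ratio scaling moved the median of all genes from 0.097 to -0.020 and that of the members to 0.14, and calls from 461 higher and 608 lower to 499 and 1184. Over all genes the count ran from 18 with the smooth muscle covariate to 7126 with array weights, and from 51 to 4018 with a mouse left out. No paired analysis was possible because the sample titles of the groups share no numbers. With 3 mice per group and few reads per member, changes smaller than the intervals given could not be seen.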
